A study of Danio rerio with 10 samples.

Results

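Vertebrate photoreceptors turn light into a nerve signal through a cascade of proteins held in the outer segment. Light changes the shape of an opsin, the opsin activates the G protein transducin, transducin releases the phosphodiesterase PDE6 from its inhibitory subunit, and the fall in cGMP closes a cyclic nucleotide-gated channel. The response is then switched off by opsin kinases, arrestins, the RGS9 complex that speeds GTP hydrolysis, and guanylate cyclases with their calcium-sensing activators. Rods and cones use separate copies of most of these genes, and the zebrafish larva sees largely with cones while its rods are still maturing.

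The genes described here are 9 members of this cascade, of 18910 genes listed in the Ensembl table at 96 hours post fertilization (hpf). They are the cone opsins opn1sw1 and opn1sw2, the rod opsin rho, the cone transducin gene gnat2, the cone channel gene cnga3a, the cone PDE6 inhibitory subunit gene pde6h, the cone opsin kinase gene grk7a, the rod arrestin gene saga and the cyclase activator gene guca1a. They were selected on their levels and exposure differences at 96 hpf, by symbol, among the listed genes. Those differences are therefore a description, with no test. In the RefSeq table of 12415 genes, 8 of the 9 were listed and cnga3a was not used.

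RNA was sequenced from pooled whole zebrafish of the AB line, so eye genes were read against all other tissues. The exposure was benzo[a]pyrene, an aromatic combustion product abbreviated BaP, at 50 µg/L, and the label of the controls gives just a volume, 0.1 mL/L, and no agent. Larvae at 96 hpf gave 2 libraries per group, and embryos at 3.3 hpf, a blastula stage, gave 3 per group. The number of animals per pool is not given in the sources used here, and nothing says that replicates came from separate clutches, so the tests measure only the spread between these libraries.

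Values are read counts scaled to library size (CPM) and adjusted by trimmed mean of M values (TMM), and differences are BaP minus control on the log2(CPM + 0.5) scale, on which changes of low genes come out smaller. No gene length was used, so CPM of different genes are not comparable as levels. Control CPM served only to pick which genes of a list are named. Reads assigned to listed genes came to 13.2 to 17.7 M per library at 96 hpf. BaP replicate 2 stood apart from the other libraries at that age, at 52.9 on a first principal component that held 68.6% of the variance, against 4.08 for BaP replicate 1 and -20.6 and -36.4 for the controls. Results that change without a library are given with and without it.

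The 9 genes differed in sign and size. In BaP larvae pde6h was about 2-fold above control, saga, grk7a, cnga3a and guca1a were below control, rho was slightly below, and opn1sw1, opn1sw2 and gnat2 differed from control by at most 0.10 on the log2 scale. The median of the 9 was -0.24, against 0.01 over all genes. Groups did not overlap for 7 of the 9, with 5 below and 2 above control, where 50.3% of all genes had groups that did not overlap (24.5% below and 25.8% above). In limma 1 of the 9, pde6h, had an adjusted p under 0.05 (0.0387), where 0.423% of all genes did (0.381% higher and 0.0423% lower). Because the genes were chosen with this comparison in view, nothing is read from either share.

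**Figure D1:**
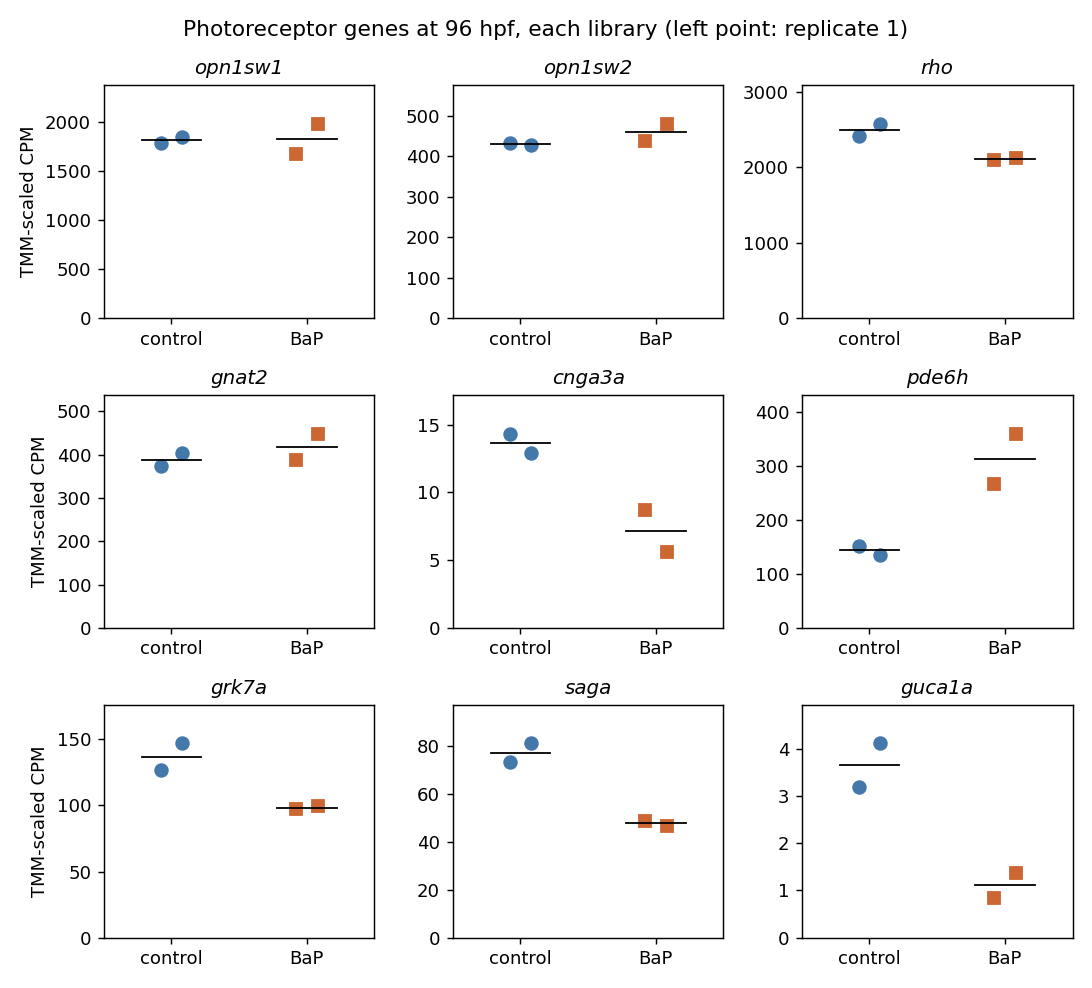
Level of each of the 9 photoreceptor genes in each library at 96 hpf, in TMM-scaled CPM on axes that start at 0. Circles are the 2 control libraries, squares the 2 BaP libraries, with replicate 1 on the left, and lines are group means. The pde6h libraries separate upwards, those of cnga3a, grk7a, saga, guca1a and rho separate downwards, and those of opn1sw1 and gnat2 overlap.

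The opsins set the light that a photoreceptor answers to, and the 2 cone opsins of short wavelengths differed little between groups. The ultraviolet cone opsin gene opn1sw1 stood at 1785 and 1845 CPM in the control libraries and at 1675 and 1984 CPM in the BaP larvae. The BaP libraries lay on either side of the controls, and the difference was 0.01 with a standard error (SE) of 0.17. Its sign turned with the scaling, at -0.08 on CPM as deposited and -0.01 with median-ratio scaling.

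The blue cone opsin gene opn1sw2 stood at 433 and 428 CPM in the control libraries and at 438 and 480 CPM in the BaP larvae. The groups did not overlap, but the lowest BaP library was only just above the highest control (log2 0.09, SE 0.12). In the RefSeq table they overlapped, with 517 and 513 CPM in the control libraries and 514 and 551 CPM in the BaP larvae, and on CPM as deposited the difference was 0.0023. The rod opsin gene rho, which encodes rhodopsin, stood at 2417 and 2573 CPM in the control libraries and at 2095 and 2120 CPM in the BaP larvae. Both BaP libraries were below both controls, by a log2 difference of -0.24 (SE 0.16).

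The Ensembl transcript table splits opn1sw1 into 2 transcripts whose shares differed between libraries. Transcript 201 took 31.0% and 23.0% of the gene's CPM in the control libraries, 28.7% in BaP replicate 1 and 46.5% in BaP replicate 2. The high share was in 1 library, BaP replicate 2, and the other BaP library lay between the controls. RefSeq lists a single transcript of opn1sw1. The other 8 genes had 1 transcript each except gnat2, whose second transcript, 003, took at most 0.728% of the gene.

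Transducin and the channel carry the signal from opsin to membrane. The gene gnat2, the α subunit of cone transducin, stood at 374 and 404 CPM in the control libraries and at 388 and 449 CPM in the BaP larvae. The groups overlapped (log2 0.10, SE 0.13). The gene cnga3a, which encodes the A subunit of the cone cGMP-gated channel, stood at 14.3 and 12.9 CPM in the control libraries and at 8.67 and 5.62 CPM in the BaP larvae. Every BaP library was below every control, by a log2 difference of -0.91 (SE 0.24), and these levels rested on 94 to 223 reads. The difference was -1.21 without BaP replicate 1 and -0.62 without BaP replicate 2.

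The inhibitory γ subunit of cone PDE6 holds the enzyme inactive in the dark, and its gene pde6h had the largest positive difference of the 9. It stood at 152 and 135 CPM in the control libraries and at 267 and 360 CPM in the BaP larvae. Both BaP libraries were well above both controls, by a log2 difference of 1.11 (SE 0.16), or 2.16-fold on that scale. The difference was 0.89 without BaP replicate 2 and 1.31 without BaP replicate 1, and 1.07 in the RefSeq table. The limma call of pde6h was lost without control replicate 2, on CPM as deposited and with a spread that has no trend on expression.

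Of the 9 genes, grk7a and saga act in switching the opsin off. The gene grk7a encodes the cone opsin kinase, which phosphorylates the activated opsin. It stood at 127 and 147 CPM in the control libraries and at 97.1 and 99.4 CPM in the BaP larvae (log2 -0.47, SE 0.13). The arrestin gene saga, whose product caps phosphorylated rhodopsin, stood at 73.2 and 81.0 CPM in the control libraries and at 48.7 and 46.8 CPM in the BaP larvae (log2 -0.68, SE 0.13). In both genes the BaP libraries lay close together and under every control. This did not extend to all opsin kinase and arrestin genes. Groups overlapped for grk7b (0.04), grk1b (-0.07) and arr3a (-0.03), and sagb was above control (0.18). The rod opsin kinase gene grk1a was below control without overlap (-0.37). None of these genes was called, and neither was grk7a or saga.

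The gene guca1a encodes GCAP1, which activates guanylate cyclase when calcium falls and so restores cGMP. It stood at 3.19 and 4.11 CPM in the control libraries and at 0.83 and 1.38 CPM in the BaP larvae. This is the lowest of the 9 differences (log2 -1.38, SE 0.32), and it rested on 42 and 71 reads in the controls and 13 and 23 reads in the BaP larvae. Every gene in the 96 hpf table is above 1 CPM in at least 2 libraries. Of the 9 genes guca1a lay nearest to that limit, above 1 CPM in 3 libraries, so its controls alone were enough to list it. With a pseudocount of 2 in place of 0.5 the difference was -0.86, and with 0.1 it was -1.66.

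Single libraries changed how many of the 9 passed limma's adjusted p of 0.05. It was 1 in all 4 libraries and 1 without control replicate 1, but 0 without control replicate 2, 4 without BaP replicate 1 (pde6h, cnga3a, guca1a and saga) and 3 without BaP replicate 2 (pde6h, guca1a and saga). Over all genes the calls moved too, from 80 to 96, 27, 2838 and 231. These fits take the remaining single library of a group to vary as much as the opposite group does.

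Ratios within a library do not depend on its scaling, and they show whether genes of the same step changed unequally. They are compared only between libraries, since no gene length was used, and they come from the comparison with which the genes were chosen. The share of all gene pairs whose ratios do not overlap was not computed, so nothing is read from how many separate. Among single genes 50.3% had groups that did not overlap. The ratio of pde6h to pde6c, the catalytic cone PDE6 gene, was 0.658 and 0.493 in the controls and 1.21 and 1.50 in the BaP larvae. The pde6c level itself was 231 and 275 CPM in the control libraries and 221 and 241 CPM in the BaP larvae, with overlapping groups. RefSeq values of pde6c lay below control without overlap (log2 -0.17).

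The 2 copies of the rod-type arrestin gene also gave separate ratios. The ratio of saga to sagb was 0.645 and 0.667 in the controls and 0.393 and 0.330 in the BaP larvae. The level of sagb was 113 and 121 CPM in the control libraries and 124 and 142 CPM in the BaP larvae, above control where saga was below. RefSeq values of sagb overlapped between groups, at 57.7 and 60.6 CPM in the control libraries and 55.9 and 72.1 CPM in the BaP larvae. Reads can be split between such copies, and how the authors assigned shared reads is not given in the sources used here.

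Opsin kinase and cyclase activator genes were paired in the same way. The ratio of grk7a to grk1b, a second cone opsin kinase gene, was 2.85 and 3.17 in the controls and 2.15 and 2.42 in the BaP larvae. The ratio of guca1a to guca1b, which encodes another cyclase activator, was 0.933 and 1.01 in the controls and 0.245 and 0.390 in the BaP larvae. These 4 ratios did not overlap between groups. Nor did that of guca1a to guca1c, at 0.165 and 0.200 in the controls and 0.0473 and 0.0767 in the BaP larvae. Those of grk7a to grk7b and of cnga3a to cnga3b did overlap. The ratio of grk7a to grk7b was 34.7 and 48.8 in the controls and 22.6 and 36.9 in the BaP larvae. The ratio of cnga3a to cnga3b was 4.5 and 2.06 in the controls and 2.60 and 2.29 in the BaP larvae.

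A ratio of opsin to transducin and a ratio between cone opsins were also taken. The ratio of rho to gnat1, the rod transducin gene, was 32.3 and 29.1 in the controls and 30.1 and 30.6 in the BaP larvae. The ratio of opn1sw1 to opn1sw2 was 4.12 and 4.31 in the controls and 3.83 and 4.13 in the BaP larvae. In both the groups overlapped.

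Set against gnat2, whose groups overlapped, pde6h, grk7a and cnga3a kept their own directions. The ratio of pde6h to gnat2 was 0.407 and 0.335 in the controls and 0.688 and 0.802 in the BaP larvae. The ratio of grk7a to gnat2 was 0.339 and 0.364 in the controls and 0.250 and 0.222 in the BaP larvae. That of cnga3a to gnat2 was 0.0384 and 0.0320 in the controls and 0.0223 and 0.0125 in the BaP larvae. Between the rod genes, the ratio of rho to saga was 33 and 31.8 in the controls and 43.0 and 45.3 in the BaP larvae. None of these 4 overlapped between groups. For the cone opsins it differed from the genes themselves. Against gnat2, opn1sw1 gave 4.78 and 4.57 in the controls and 4.31 and 4.42 in the BaP larvae, without overlap. Against gnat2, opn1sw2 gave 1.16 and 1.06 in the controls and 1.13 and 1.07 in the BaP larvae, with overlap.

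**Figure D2:**
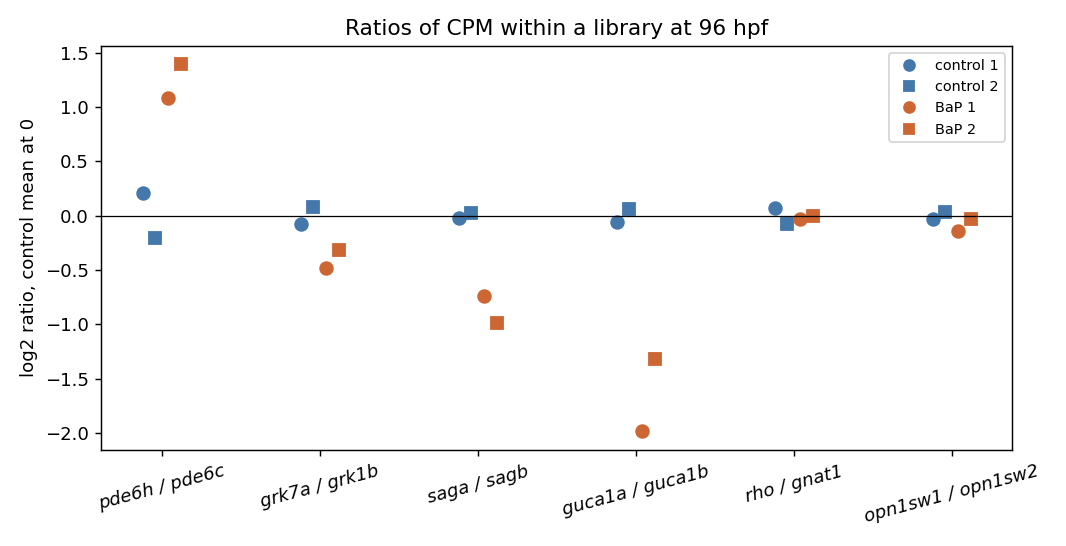
Log2 ratios of CPM of gene pairs within each library at 96 hpf, with the control mean of each pair set to 0. Circles are replicate 1 and squares replicate 2, blue for control and orange for BaP. The BaP points of pde6h to pde6c lie above the controls, those of grk7a to grk1b, saga to sagb and guca1a to guca1b lie below, and those of rho to gnat1 and opn1sw1 to opn1sw2 overlap.

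To set the 9 genes in their pathway, 58 phototransduction genes were listed from textbook knowledge, and 46 of them had a value at 96 hpf. Of the other 37 genes, none passed limma's adjusted p of 0.05. An unadjusted p under 0.05 was found for 5 of the 37 (13.5%), where 15.7% of all genes had one. Of the 37, 12 were above and 25 below control, with a median of -0.14, whereas 51.6% of all genes were above control. Groups did not overlap for 19 of the 37 (51.4%), close to the 50.3% of all genes. By direction, 14 (37.8%) were below control, where 24.5% of all genes were, and 5 (13.5%) above, where 25.8% were. This split was not tested.

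**Figure D3:**
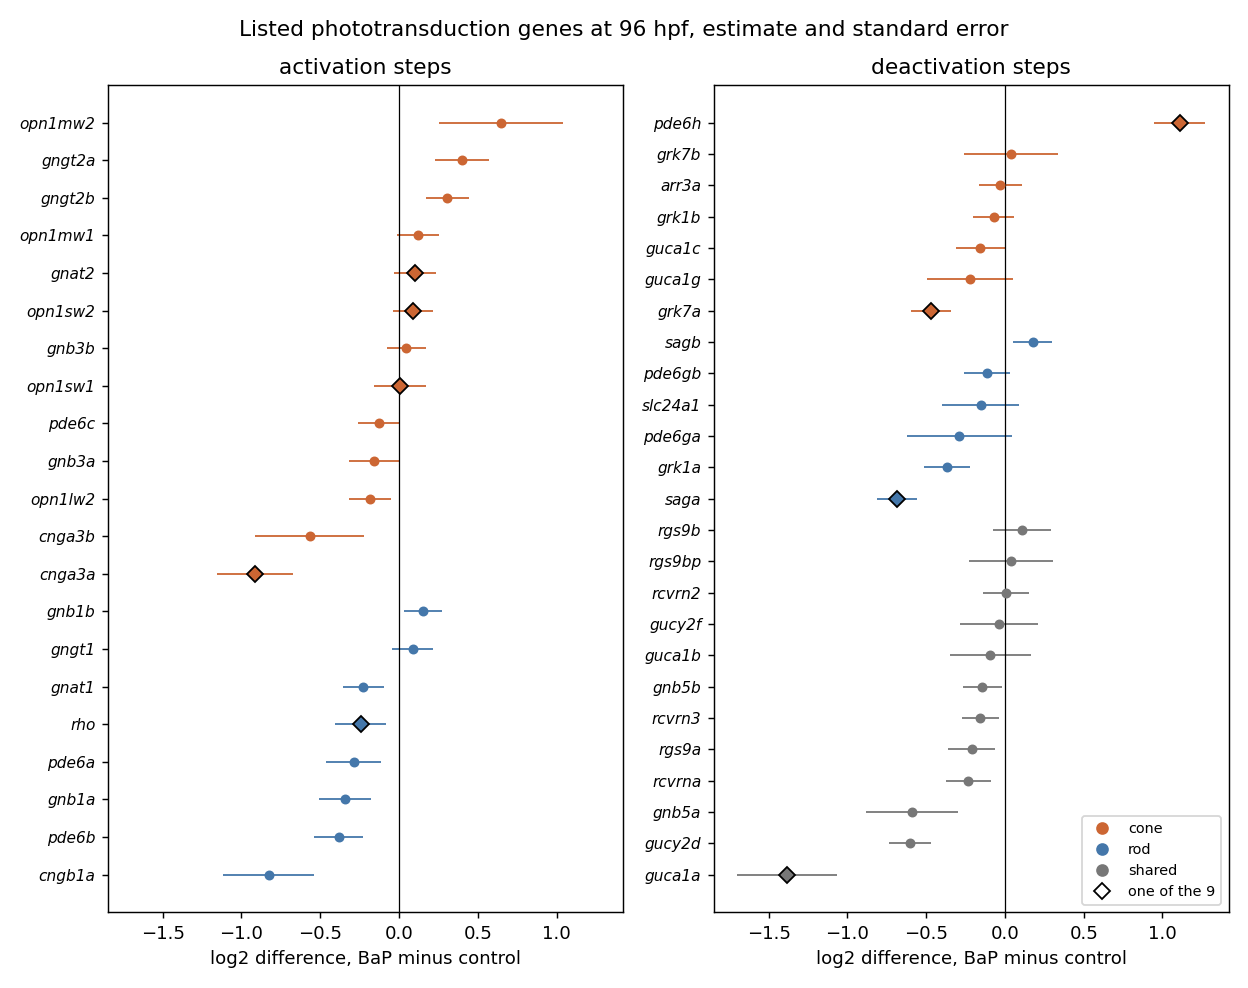
Log2 difference, BaP minus control, at 96 hpf for the 46 listed phototransduction genes, with bars of 1 standard error, activation steps on the left and deactivation steps on the right. Colours give the cone, rod and shared branches and black-edged diamonds mark the 9 genes. Most rod genes lie to the left of 0, cone genes lie on both sides, and pde6h at 1.11 and guca1a at -1.38 are the extremes.

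Most listed rod genes lay below control, and cone genes were evenly split. Of 14 listed rod genes 11 were below control, with a median log2 difference of -0.27, and 8 of them (57.1%) had both BaP libraries below both controls, where 24.5% of all genes did. These 8 include rho and saga, and without the 9 genes it was 6 of 12 (50.0%), a list that still holds gnb1a. Of 20 listed cone genes 10 were below and 10 above control, with a median of -0.01, and 5 (25.0%) had BaP libraries wholly below control. Relative to the control mean, the median rod gene stood at -0.04 and 0.04 in the controls and at -0.24 and -0.27 in the BaP larvae. The median cone gene stood at 0.00 and 0.00 in the controls and at -0.03 and 0.02 in the BaP larvae.

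The gap between the medians of rod and cone genes was -0.25, and -0.21 with the 9 genes left out. Within each library, with the 9 genes included, the gap was -0.05 and 0.05 in the controls and -0.21 and -0.29 in the BaP larvae. With the 9 left out it was -0.04 and 0.04 in the controls and -0.16 and -0.17 in the BaP larvae. Both BaP libraries lay below both controls either way. Genes are not replicates, so the difference between branches was not tested. The rod median kept its sign in each alternative run, from -0.34 on CPM as deposited to -0.23 with a pseudocount of 2. The cone median lay close to 0 and took either sign.

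Among rod genes the channel gene cngb1a stood lowest (log2 -0.83, SE 0.29), at 4.93 and 5.27 CPM in the control libraries and 3.34 and 2.09 CPM in the BaP larvae. The catalytic PDE6 genes pde6b and pde6a had differences of -0.38 and -0.29, the opsin kinase gene grk1a -0.37 and gnat1 -0.23. The 3 rod-list genes outside the 9 with the highest control CPM were gnb1b, sagb and gnb1a, at log2 differences of 0.15, 0.18 and -0.34. In the RefSeq table they were -0.29, 0.10 and -0.02, so the sign of gnb1b turned with the annotation. The G protein β genes gnb1a and gnb1b are also expressed outside the eye, so in whole larvae they say little about rods. In bulk RNA, fewer rods and less RNA per rod cannot be told apart.

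Among cone genes outside the 9, those with the highest control CPM were the red opsin gene opn1lw2, the green opsin gene opn1mw1 and the transducin γ gene gngt2b. Their log2 differences were -0.18, 0.12 and 0.31. The cone arrestin gene arr3a stood at 483 and 484 CPM in the control libraries and at 433 and 519 CPM in the BaP larvae. The second channel gene cnga3b had a difference of -0.57 (SE 0.35) with overlapping groups, at 3.19 and 6.25 CPM in the control libraries and 3.34 and 2.45 CPM in the BaP larvae. Green opsin genes are close copies that can share reads, so opn1mw1 and opn1mw2 are uncertain singly.

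Deactivation and activation genes were compared among the 9 and over the wider list. The deactivation genes took in PDE6 inhibitory subunit, recoverin and exchanger genes beside those named above as switching the response off. Their products need not all act in the same direction. The 4 deactivation genes of the 9 (pde6h, grk7a, saga and guca1a) had a median of -0.58 and the 5 activation genes a median of 0.01. Over all listed genes, 25 deactivation genes had a median of -0.15 and 21 activation genes a median of -0.13. With the 9 left out the medians were both -0.14. The activation median depended on single libraries, at -0.018 without control replicate 1 and -0.012 without control replicate 2, where the deactivation median was -0.14 in both.

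Of the 25 deactivation genes 19 were below control, and of the 21 activation genes 11 were. With the 9 left out, 5 of 21 and 7 of 16 were above control, where 51.6% of all genes were. Below control it was 16 of 21 and 9 of 16, and the difference between steps was not tested. In the RefSeq table, with the 9, 21 of 24 and 9 of 16 were below control, with medians of -0.20 and -0.03. Those 16 activation genes lacked cnga3a, cngb1a, cnga3b and pde6b, the lowest in the Ensembl table, and gngt2a, which was above control there. The RefSeq and Ensembl medians are therefore over different genes. Counting pde6h with the deactivation genes made little difference, since their median without it was -0.16.

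Single deactivation genes outside the 9 varied. The retinal guanylate cyclase gene gucy2d, listed under its older name gc3, stood at 54.1 and 58.8 CPM in the control libraries and at 39.1 and 34.9 CPM in the BaP larvae. Its difference of -0.60 (SE 0.14) was close to that of saga. Neither gene was called, with a limma adjusted p of 0.160 for gucy2d and 0.0882 for saga. The second cyclase gene gucy2f had a difference of -0.04. Of the recoverin genes, whose products regulate opsin kinase, rcvrn3 and rcvrn2 had differences of -0.16 and 0.01. The RGS9 partner gene gnb5b had a difference of -0.14.

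Markers of other eye cells were read beside these values. The marker lists were chosen with earlier results of these data known, so their shares are a description and no support. The RNA came from whole larvae, so a marker also expressed outside the eye is not a reading of that cell type alone. Of 9 listed markers of the retinal pigment epithelium, the layer that recycles visual pigment, all were above control and 3 were called, where 0.381% of all genes were called higher. These were rpe65a (log2 2.4), rlbp1b (2.31) and rgrb (1.12), named after their values were seen. The summed level of all 9 markers was 248 and 240 CPM in the control libraries and 687 and 500 CPM in the BaP larvae, with no listed marker at 0. The markers with the highest control CPM, pmela and dct, are also expressed in skin pigment cells, at differences of 0.78 and 1.25. The part of pigment epithelium in the photoreceptor values was not tested.

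No gene of the other 8 marker lists was called in limma. An unadjusted p under 0.05 was found in 2 of 9 photoreceptor transcription factors, 1 of 8 outer segment genes, 2 of 6 Müller glia, 1 of 9 bipolar and 1 of 10 amacrine and horizontal cell markers. It was found in none of 3 pineal, 8 ganglion cell and 11 lens markers, where 15.7% of all genes had one. Among photoreceptor transcription factors 8 of 9 lay below control (median -0.26). The one with the highest control CPM, crx, which drives photoreceptor genes, stood at 157 and 124 CPM in the control libraries and 127 and 107 CPM in the BaP larvae, and neurod1 had a difference of -0.13. The rod factor genes nr2e3 and nrl had differences of -0.54 and -0.66. The nrl level was 1.52 and 1.39 CPM in the control libraries and 0.90 and 0.60 CPM in the BaP larvae. Only its controls were above the listing limit of 1 CPM, so nothing is read from its direction. Of 8 outer segment genes 6 lay below control, with a median of -0.25. For 4 of the 8 (50.0%) both BaP libraries were below both controls, as for 24.5% of all genes. The disc genes prph2b and prph2a, with the highest control CPM, were the 2 above control, at 0.21 and 0.03.

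The summed level of photoreceptor transcription factors was 458 and 374 CPM in the control libraries and 364 and 340 CPM in the BaP larvae. Both BaP sums were below both controls, as were 5 of the 9 genes singly (55.6%), where 24.5% of all genes were. These 5 include nrl, which was listed through its controls alone. Besides nr2e3 and nrl, the genes below control included tbx2b (-0.30), thrb (-0.26) and six7 (-0.19), and 1 of the 9, foxq2, was above (0.37). Outer segment genes summed to 365 and 369 CPM in the control libraries and 364 and 360 CPM in the BaP larvae. For bipolar cell markers, led by gnao1b and vsx1, the sum was 317 and 305 CPM in the control libraries and 297 and 289 CPM in the BaP larvae. For amacrine and horizontal cell markers, led by gad2 and gad1b, it was 827 and 772 CPM in the control libraries and 753 and 707 CPM in the BaP larvae. For ganglion cell markers, led by gap43 and pou4f2, it was 247 and 223 CPM in the control libraries and 253 and 236 CPM in the BaP larvae. The bipolar and the amacrine and horizontal sums were lower in both BaP libraries, and the ganglion cell sums overlapped. List medians were -0.27 for bipolar, -0.08 for amacrine and horizontal and 0.02 for ganglion cell markers. The bipolar median was close to that of the rod genes (-0.27), with 5 bipolar markers below and 4 above control.

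For lens genes, led by crybb1 and cryba1b, the sum was 4673 and 3962 CPM in the control libraries and 4575 and 4751 CPM in the BaP larvae, with overlapping groups. Müller glia markers, led by apoeb and glula, summed to 1649 and 1585 CPM in the control libraries and to 1772 and 2233 CPM in the BaP larvae. Of these 6 markers only apoeb (0.46) and glula (0.33) were above control. The other 4 were slightly below with overlapping groups, and the list median was -0.01. The pineal organ also uses phototransduction genes, and its listed markers aanat2, asmt and bsx summed to 6.22 and 5.21 CPM in the control libraries and 5.65 and 5.26 CPM in the BaP larvae. None of these lists had a marker at 0 in any library. Their part in the photoreceptor values was not tested.

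**Figure D4:**
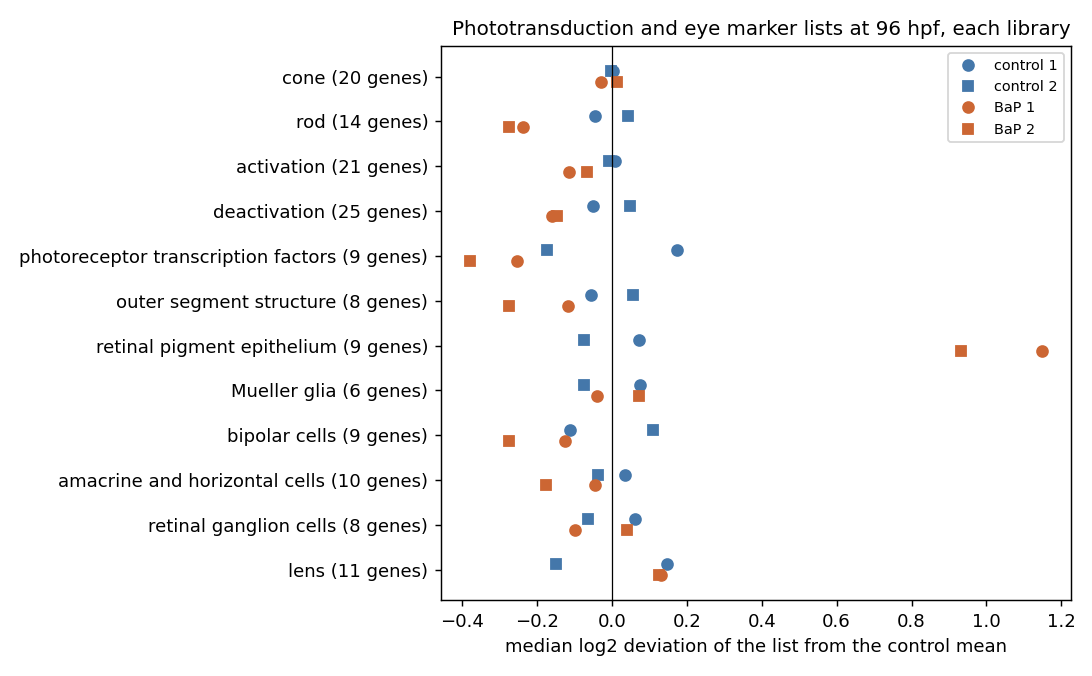
Median log2 deviation from the control mean at 96 hpf of the cone, rod, activation and deactivation genes and of 8 eye marker lists, with the number of listed genes in brackets. Circles are replicate 1 and squares replicate 2, blue for control and orange for BaP. Rod genes lie at -0.24 and -0.27 in the BaP larvae, cone genes lie near 0, and pigment epithelium markers lie at 1.15 and 0.93.

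The profiles of the 9 genes over the 4 larval libraries were compared by distance. The genes were chosen with this comparison in view, so no grouping is read from the distances. Distances are Euclidean, between centred log2 profiles. The closest were opn1sw2 and gnat2 (0.10), opn1sw1 and gnat2 (0.11) and opn1sw1 and opn1sw2 (0.12). Next came saga and grk7a (0.23), grk7a and rho (0.24) and opn1sw1 and rho (0.30). The widest distance was 2.52, between pde6h and guca1a. Of the 27 nearest neighbours of the 9 genes, 3 per gene among genes with a mean of at least 10 CPM, 1 was itself a phototransduction gene, gucy2d beside saga. The 3 nearest to pde6h were gsto2 (0.03), cbr1l (0.11) and sqrdl (0.13), named after their values were seen.

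Among 10464 genes with a mean of at least 10 CPM outside the pathway, the nearest to the mean profile of the 9 were notch2, itga5, NUP153, cry1b and si:dkey-22i16.3. Their distances ran from 0.01 to 0.04 and their log2 differences from -0.27 to -0.23. With 4 libraries many genes lie this close, and 32 lay within 2 times the distance of the fifth.

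At 3.3 hpf, before any eye has formed, 1 of the 9 genes was listed, opn1sw2, and the other 8 had no listed value in either gene table. Every gene in the 3.3 hpf Ensembl table is above 1 CPM in at least 3 libraries. The opn1sw2 level was 1.86, 1.54 and 1.15 CPM in the control libraries and 2.35, 2.08 and 2.37 CPM in the BaP embryos. Every BaP library was above every control, where 5.62% of all genes were above and 5.74% below without overlap at that age and 49.1% had a difference above 0, and the values rested on 21 to 33 reads in the controls and 44 to 53 in the BaP embryos.

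The opn1sw2 difference at 3.3 hpf was 0.47 (SE 0.29), from 1.52 ± 0.36 to 2.27 ± 0.16 CPM (SD, n = 3), and was not called in limma (adjusted p = 0.908 over all genes). No gene at all was called at that age, with an unadjusted p under 0.05 in 4.82% of genes. In the RefSeq table the difference was 0.49, and again the groups did not overlap. The tables of the 2 ages were scaled separately, so the levels at 3.3 and 96 hpf are not compared.

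Of the 58 pathway genes, 6 were listed at 3.3 hpf in the Ensembl table, namely opn1sw2, gnb1a, gnb1b, pde6b, gucy2d and gnb5b. The G protein genes gnb1b and gnb1a stood at 248 to 288 CPM and 61.4 to 67.0 CPM in the control libraries. The gucy2d level was 12.6, 25.3 and 19.6 CPM in the control libraries and 22.3, 10.7 and 6.04 CPM in the BaP embryos, with overlapping groups. Its difference of -0.67 (SE 0.47) was not called.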

How the data were processed

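Expression was measured by RNA sequencing. The deposited files are named as counts but hold CPM made by the authors, as read from the values, with equal column sums within a table. Per the file headers the annotation is Ensembl release 70 or RefSeq. TopHat, Partek, edgeR and the Zv9 build are named in the submitters' processing notes, with no role or version. Values stepped by the CPM of 1 read, which gave the depth (17.5 to 22.2 M reads at 3.3 hpf). Between 35.0% and 65.1% of values were whole multiples of it within 0.05 reads, so whole reads were not recovered and no count test was run. All columns were mapped to a sample or, in the RefSeq 3.3 hpf table, to a group.

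TMM factors were computed anew on CPM (log ratios trimmed by 30% and averages by 5%), and limma 3.58.1 in R 4.3.3 was run on log2(CPM + 0.5) over all listed genes with the spread modelled as a trend over mean expression, Benjamini-Hochberg adjustment and a threshold of 0.05. It was also run on simulated data with independent normal errors, which cannot show how an outlying library acts. Older symbols were matched through a current RefSeq table, and the RefSeq transcripts of 8 of the 9 genes matched the same genes there.

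The members, lists and tests were chosen with earlier results of these data known. Genes named are the 9, the 3 others of each branch and the 2 of each marker list with the highest control CPM and the 5 nearest profiles; further genes, such as gucy2d, pde6c, sagb and cngb1a, were named after their values were seen. No sequences are shown. Alternatives are given at the end.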

Additional observations from a re-analysis of the deposited data

How the results depend on the processing

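The design has 2 libraries per group at 96 hpf, and guca1a, cngb1a and cnga3b rest on few reads. Leaving out 1 library gave 27 to 2838 called genes, and medians of -0.29 to -0.21 for the 9 genes, -0.28 to -0.24 for rod, -0.03 to 0.01 for cone, -0.16 to -0.14 for deactivation and -0.11 to -0.012 for activation genes. CPM as deposited gave 38 calls and medians of -0.33 (the 9), -0.34 (rod), -0.10 (cone), -0.23 (deactivation) and -0.22 (activation). It moved the median of all genes from 0.01 to -0.07. A spread without a trend left 2 calls. Genes with a mean of at least 5 CPM gave medians of -0.12 (the 9, without guca1a) and -0.061 (activation). The RefSeq table gave -0.16 (the 9, without cnga3a), -0.055 (18 cone genes) and -0.029 (16 activation genes), over gene lists that differ from the Ensembl ones. The opn1sw1 difference was negative on CPM as deposited (-0.081), with RLE scaling (-0.0074), in the RefSeq table (-0.037), without BaP replicate 2 (-0.12) and without control replicate 1 (-0.018), and reached 0.12 without BaP replicate 1. The gnat2 difference ran from -2.6e-04 without BaP replicate 2 to 0.20 without BaP replicate 1. The causes were not tested. The other differences of the 9 kept their sign in every alternative.

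Replicate numbers are shared between groups, but nothing in the labels says that they pair samples. Deviations of same-numbered libraries correlated at -0.26 over genes. A replicate block gave 132 calls, 1 of them among the 9 (pde6h). The crossed pairing, added after seeing the data, gave 2041 calls, 5 of them among the 9.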
